A study of Homo sapiens with 6 samples.

Results

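The 40 genes described here make up the core autophagy machinery together with the transcription factors TFEB, TFE3 and MITF. They were taken by gene symbol from a count table of 24960 genes by a rule that uses no measured value, although the list was drawn up with earlier results of these data known, and all 40 were in the table. Of these, 38 passed a filter on low counts and were compared between groups among 15095 tested genes. The exceptions were ULK2 and MAP1LC3A. K562 is an established human chronic myeloid leukemia cell line with erythroid features, and hyperoside is a flavonoid glycoside found in plants. The control group comprised 3 libraries from K562 cells without hyperoside, and the hyperoside group comprised 3 libraries from K562 cells given hyperoside (2 mM). Neither a transgene nor a genetic deletion was named for either group, the duration of treatment before RNA extraction was not given in the sources used here, and all libraries came from this 1 cell line.

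Macroautophagy encloses cytoplasmic material in a double membrane, the autophagosome, which then fuses with the lysosome. The ULK1 kinase complex starts the process, the class III phosphatidylinositol 3-kinase complex lays down PI3P on the forming membrane, lipid carriers enlarge that membrane, and ubiquitin-like conjugation enzymes attach ATG8 proteins such as LC3 to it. Receptors bind both cargo and ATG8 proteins. TFEB, TFE3 and MITF are basic helix-loop-helix leucine zipper factors that bind the E-box CACGTG and drive lysosomal and autophagy genes, and phosphorylation by the nutrient-sensing kinase MTORC1 holds them in the cytoplasm.

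The counts summed to between 35613283 and 36754725 per library, and the 38 tested genes had at least 78 counts in each library. Control replicate 1 stood apart from the other control libraries, with a chi-square per degree of freedom of 21.3 and 24.4 against 6.46 between the other pair, so counts of called genes are also given without it. All 8 listed erythroid markers were detected. Their summed FPKM (fragments scaled to gene length and to the library total) was 2906 to 3690 in the control group and 1974 to 2287 in the hyperoside group, most of it from the globin genes HBG1 and HBG2. Among these markers HBG1 and HBG2 fell, KLF1, EPOR and TFRC rose, and GATA1 and TAL1 were not called. The summed FPKM of the endothelial markers, nearly all PECAM1, was 1.21 to 1.42 and 3.70 to 4.19. The T cell markers, nearly all CD3D, summed to 35.0 to 42.5 and 47.6 to 53.5 FPKM. Sums of the B cell, fibroblast and epithelial markers had overlapping ranges, and PDGFRA was at 0 in all libraries. Among the fibroblast markers COL1A1 fell, from a mean of 0.458 to 0.239 FPKM, and COL1A2 and DCN were not called. What these shifts contribute to the autophagy genes was not tested, and in bulk RNA a smaller number of expressing cells cannot be told apart from less RNA per cell.

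Autophagy transcripts moved in both directions in the hyperoside group. By the quasi-likelihood test of edgeR, adjusted by the Benjamini-Hochberg method across every tested gene, 5 of the 38 genes rose and 13 fell at an adjusted p under 0.05, and 20 were not called. The genes that rose were MITF, RB1CC1, ATG14, AMBRA1 and ATG7. The genes that fell were TFEB, TFE3, ULK1, ATG101, PIK3R4, WIPI1, ATG2A, ATG9A, ATG4C, MAP1LC3B, GABARAPL1, GABARAPL2 and CALCOCO2. The called share of 47.4% was near that of all tested genes, 45.3%. By direction, 13.2% of the autophagy genes rose against 22.1% of all tested genes, and 34.2% fell against 23.2%. Those shares of all tested genes are the background for each count by role or list below. The median log2 fold change was -0.10, beside 0.00 over all tested genes, with values from -0.98 to 0.94. Without control replicate 1, 5 genes were called higher and 14 lower, with ATG101 lost and ATG2B and ATG12 gained.

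At a fold change above 2 edgeR called 0 of the 38 genes, and no gene passed that fold at an unadjusted p under 0.05 either, whereas 10.2% of all tested genes passed both thresholds. DESeq2 also placed 0 genes past them. Without hyperoside replicate 1, WIPI1 (log2 fold change -1.07) and TFEB (-1.05) passed, and without control replicate 2 TFEB (-1.02) did. The groups were separated, with no overlap of normalized counts, in 23 of the 38 genes, beside 54.4% of all tested genes. The 20 genes that were not called had absolute log2 fold changes of at most 0.26, and 4 of them, UVRAG, WIPI2, ATG10 and ATG12, had an unadjusted p under 0.05. The replicates are not stated to be separate cultures, so p-values measure only the spread between these libraries.

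**Figure D1:**
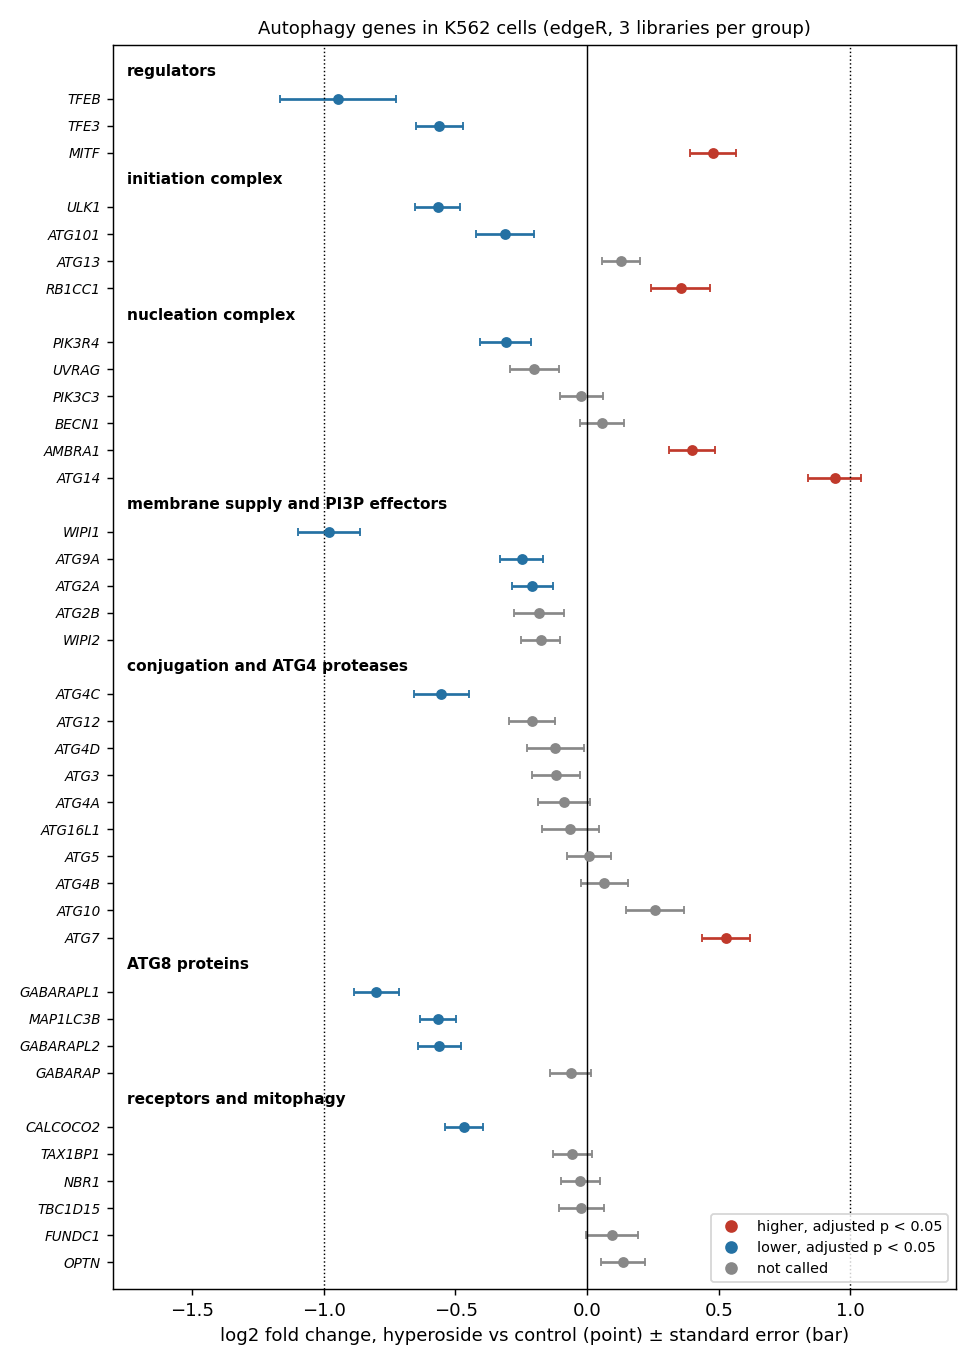
The log2 fold change of hyperoside against control (horizontal axis) for the 38 tested autophagy genes, grouped by role, with the standard error as a bar and dotted lines at a fold change of 2. WIPI1 (-0.98) and ATG14 (0.94) lie at the ends of the range, and the 20 genes in grey were not called.

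The 3 regulators did not move together. TFEB (chr6:41683978-41736223), the best-studied driver of lysosome formation, had 1.34, 1.09 and 1.2 FPKM in the control libraries against 0.750, 0.592 and 0.613 in the hyperoside libraries, listed here and throughout in the order of replicates 1, 2 and 3. Every hyperoside library lay below every control library. TFEB fell from 1.21 ± 0.125 to 0.652 ± 0.0859 FPKM (mean ± SD, n = 3 per group), which is -0.95 on the log2 scale of fold change (standard error, SE, 0.22, edgeR adjusted p = 0.00194). On the scale of log2(FPKM + 1), where the added 1 shrinks the change of a gene at this level, the difference was -0.42. TFE3 (chrX:49028726-49043357), which recognises the same E-box, was the most abundant regulator per length. Its FPKM was 28.1, 24.8 and 26.4 in the control libraries against 18.5, 16.8 and 20.3 in the hyperoside libraries, again without overlap. The log2 fold change of TFE3 was -0.56 (SE 0.09, edgeR adjusted p = 5.93e-05).

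MITF (chr3:69739464-69968332), known as the master regulator of melanocytes and also expressed in mast cells and other lineages, went the other way. Its FPKM was 5.98, 6.86 and 7.09 in the control libraries against 9.37, 9.17 and 10.2 in the hyperoside libraries. All 3 hyperoside libraries exceeded all 3 control libraries, and the log2 fold change was 0.48 (SE 0.09, edgeR adjusted p = 0.000225). As a share of the summed FPKM of the 3 regulators, MITF took 16.9% to 20.9% in the control libraries and 32.7% to 34.5% in the hyperoside libraries. The share of TFE3 was 75.8% to 79.3% and 63.3% to 65.4%, and that of TFEB 3.33% to 3.79% and 1.97% to 2.62%. TFE3 was therefore the leading regulator transcript per length in every library, followed by MITF and TFEB. These shares were computed after the levels had been seen and are a description of composition.

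**Figure D2:**
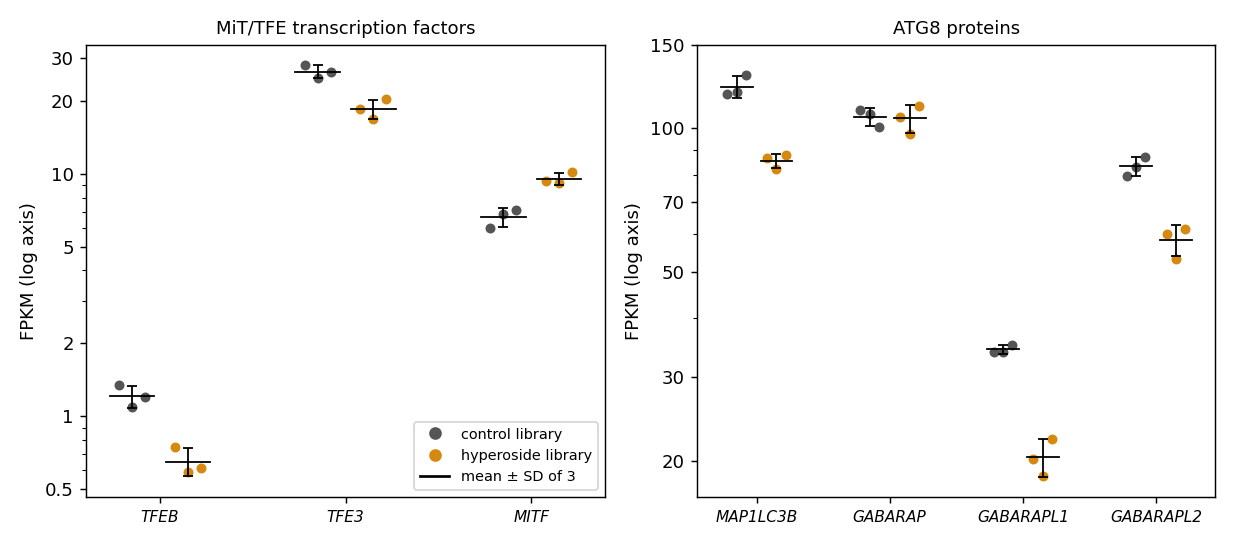
FPKM on a log axis for the regulators (left) and the ATG8 genes (right), with each of the 3 control libraries (grey) and 3 hyperoside libraries (orange) as a point and the mean ± SD as lines. MITF was higher and TFEB and TFE3 were lower in every hyperoside library, and GABARAP was the ATG8 gene whose groups overlapped.

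Because the regulators bind CACGTG, the promoter sequences of the autophagy genes were searched for it. CACGTG is its own reverse complement, so both strands are covered by 1 search. In RefSeq promoters of GRCh38.p14, from 250 bases before to 50 bases after the start, 36 of the 40 genes had 46 promoters, and 3 of these (6.52%) held CACGTG, beside 7.26% of all 35116 promoters. The 3 genes were ATG14, ATG3 and TBC1D15. GTCACGTG, which contains CACGTG and opens the lysosomal CLEAR element, was sought on both strands. It was found in ATG14 and ATG3 (4.35% of promoters, beside 2.40% of all), in ATG14 as its reverse complement CACGTGAC. Of 17 promoters of listed TFEB target genes, which belonged to 15 genes, 11 (64.7%) held CACGTG. Genes can be listed as TFEB targets because of this motif, so that share is not an independent yardstick. ATG14 rose, and ATG3 and TBC1D15 were not called. The bases before the start are shown for these 3 genes and for WIPI1, which had the largest decrease and holds no match in this window. Each is written in its gene's direction of transcription, with CACGTG in capitals.
ATG14, chr14:55411831-55412080, minus strand: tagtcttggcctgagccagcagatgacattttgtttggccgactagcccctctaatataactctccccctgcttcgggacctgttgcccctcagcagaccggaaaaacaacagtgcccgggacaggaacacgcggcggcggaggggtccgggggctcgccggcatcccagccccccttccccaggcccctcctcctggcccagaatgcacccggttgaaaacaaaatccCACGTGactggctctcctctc
ATG3, chr3:112561963-112562212, minus strand: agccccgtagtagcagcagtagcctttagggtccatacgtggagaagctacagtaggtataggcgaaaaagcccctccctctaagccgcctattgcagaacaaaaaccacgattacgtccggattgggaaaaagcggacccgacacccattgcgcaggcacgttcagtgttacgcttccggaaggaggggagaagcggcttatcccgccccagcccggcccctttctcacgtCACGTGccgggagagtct
ATG3 just past the start, chr3:112561943-112561967, minus strand: agtctagtgtCACGTGaggccccgg
TBC1D15, chr12:71839509-71839758, plus strand: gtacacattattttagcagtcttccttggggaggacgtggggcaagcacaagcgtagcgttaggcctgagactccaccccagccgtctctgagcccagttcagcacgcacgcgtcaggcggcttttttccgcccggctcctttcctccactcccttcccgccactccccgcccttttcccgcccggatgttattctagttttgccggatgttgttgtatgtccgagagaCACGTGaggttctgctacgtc
WIPI1, chr17:68457497-68457746, minus strand: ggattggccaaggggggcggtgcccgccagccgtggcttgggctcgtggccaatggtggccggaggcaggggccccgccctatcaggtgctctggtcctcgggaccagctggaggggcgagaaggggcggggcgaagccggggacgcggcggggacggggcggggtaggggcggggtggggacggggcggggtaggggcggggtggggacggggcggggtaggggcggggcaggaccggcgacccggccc
The capitals begin 21 bases before the start in ATG14 and TBC1D15 and 18 bases before it in ATG3. ATG3 has a further match whose first base is the sixth of the transcript. The stretch that shows this match opens with agtct, which repeats the last bases before the start. Searches on both strands for TGATGNAA, the core of the composite site bound by ATF4, found 0 of 46 promoters (3.62% of all promoters), and those for GTAAACA, a FOXO site, found 1, in CALCOCO2 (3.42% of all promoters). A match describes letters in these windows and not binding, and a window without one says nothing about the factor.

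In the initiation complex, the kinase transcript fell and that of its scaffold rose. ULK1 (chr12:131894622-131923150), the kinase that receives signals from MTORC1 and AMPK, had 13.4, 12 and 13.2 FPKM in the control libraries against 9.35, 8.34 and 9.27 in the hyperoside libraries. The groups were well separated, and the log2 fold change was -0.57 (SE 0.09, edgeR adjusted p = 3.51e-05). ULK2, a kinase related to ULK1, had 2, 0 and 0 counts in the control libraries against 2, 0 and 0 in the hyperoside libraries. A count of 0 allows up to 3 counts, which covers counting error only, so no difference in ULK2 was detectable at this depth.

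RB1CC1, which encodes the scaffold FIP200, had 8.24, 11.8 and 13.1 FPKM in the control libraries against 15.7, 13.7 and 14.4 in the hyperoside libraries. Control replicate 1, the library that stood apart, was the lowest, and the highest control value lay just under the lowest hyperoside value. The log2 fold change was 0.36 (SE 0.11, edgeR adjusted p = 0.0147). It was 0.20 (edgeR adjusted p = 0.0185) without control replicate 1 and 0.31 (edgeR adjusted p = 0.0787) without hyperoside replicate 1, which ended the call. ATG101, a partner that stabilises ATG13, had 18.4, 17.2 and 16.9 FPKM in the control libraries against 12.6, 14.8 and 16.3 in the hyperoside libraries, a log2 fold change of -0.31 (SE 0.11, edgeR adjusted p = 0.0289). Its hyperoside libraries spread more than its control libraries. The ATG101 call was lost without control replicate 1 or 2 and without hyperoside replicate 1 or 2, where the edgeR adjusted p was 0.0599, 0.0525, 0.176 and 0.0612. ATG13, the adaptor of the complex, had a log2 fold change of 0.13 (edgeR adjusted p = 0.166).

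Of the 6 genes of the class III phosphatidylinositol 3-kinase complex, 2 rose, 1 fell and 3 were not called, with a median log2 fold change of 0.02. ATG14 (chr14:55366391-55411830), the subunit that directs the kinase to the site where autophagosomes form, had the largest increase among the autophagy genes. Its FPKM was 3.36, 3.57 and 3.28 in the control libraries against 7.19, 6.22 and 6.88 in the hyperoside libraries. The lowest hyperoside value was well above the highest control value. The mean went from 3.40 ± 0.148 to 6.76 ± 0.496 FPKM (mean ± SD, n = 3 libraries), at a log2 fold change of 0.94 (SE 0.10, edgeR adjusted p = 7.8e-07). No exon of another gene overlaps ATG14 in the GENCODE 29 annotation.

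UVRAG, which takes the place of ATG14 in the complex that acts on endosomes, had 4.73, 5.37 and 4.61 FPKM in the control libraries against 4.55, 4.09 and 4.59 in the hyperoside libraries. The log2 fold change of UVRAG was -0.20 (SE 0.09, edgeR adjusted p = 0.0866), so it was not called. The FPKM ratio of ATG14 to UVRAG, chosen after the values were seen and given as a description, was 0.711, 0.665 and 0.712 in the control libraries against 1.58, 1.52 and 1.5 in the hyperoside libraries. UVRAG was thus the more abundant of the pair per length in each control library and ATG14 in each hyperoside library.

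PIK3C3, the lipid kinase itself, had a log2 fold change of -0.02 (edgeR adjusted p = 0.853). BECN1, the partner shared by both complexes and the most abundant of this group, had 23.1, 25.1 and 27.7 FPKM in the control libraries against 29, 26.5 and 26.2 in the hyperoside libraries. These ranges overlapped, and the log2 fold change was 0.06 (edgeR adjusted p = 0.608). PIK3R4, the regulatory subunit, had 8.91, 10.2 and 8.29 FPKM in the control libraries against 7.99, 7.80 and 7.09 in the hyperoside libraries. It fell with a log2 fold change of -0.31 (SE 0.10, edgeR adjusted p = 0.0134), a call that was lost without control replicate 2 (edgeR adjusted p = 0.0967) and without hyperoside replicate 3 (0.0871). AMBRA1, which binds BECN1 and also serves as a ubiquitin ligase adaptor, had 6.42, 5.90 and 6.08 FPKM in the control libraries against 8.20, 8.0 and 8.90 in the hyperoside libraries. It rose without overlap between the groups, with a log2 fold change of 0.40 (SE 0.09, edgeR adjusted p = 0.00126).

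All 5 genes for PI3P effectors and membrane supply had negative log2 fold changes, and 3 of them were called lower, with a median of -0.21. WIPI1 (chr17:68421281-68457496), a PI3P-binding propeller protein of the forming autophagosome, had the largest decrease among the autophagy genes. Its FPKM was 4.33, 4.72 and 4.59 in the control libraries against 2.69, 2.14 and 2.33 in the hyperoside libraries. The groups were far apart relative to their spread. The mean fell from 4.55 ± 0.200 to 2.38 ± 0.280 FPKM (mean ± SD, n = 3 libraries), at a log2 fold change of -0.98 (SE 0.12, edgeR adjusted p = 2.9e-06). Exons of WIPI1 overlap those of ARSG on the opposite strand. Overlaps on the opposite strand affect 18 of the 40 genes. As no source says whether strand was used in counting, reads of the overlapping genes cannot be told apart. Exons of ATG9A and of GABARAP overlap those of a protein-coding gene on the same strand, where strand would not separate reads. WIPI2, the close relative that recruits ATG16L1, had a log2 fold change of -0.18 (SE 0.07, edgeR adjusted p = 0.0622) and was not called.

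ATG9A, a lipid scramblase carried on vesicles, had the highest mean over all libraries in this group per length, close to that of WIPI2, with 22.6, 20.3 and 21.5 FPKM in the control libraries against 17.6, 19.3 and 19.1 in the hyperoside libraries. The separation of the groups was narrow, and the log2 fold change was -0.25 (SE 0.08, edgeR adjusted p = 0.0192). Without hyperoside replicate 1 the ATG9A call was lost (edgeR adjusted p = 0.119), and with a replicate block its edgeR adjusted p was 0.0502. ATG2A and ATG2B encode rod-shaped lipid transfer proteins. ATG2A had 13.2, 13.8 and 12.6 FPKM in the control libraries against 12, 11.3 and 12.2 in the hyperoside libraries, with a log2 fold change of -0.21 (SE 0.08, edgeR adjusted p = 0.0363). This was the least stable call, lost in 9 of 13 alternative analyses, among them those without control replicate 2 and without each of the hyperoside replicates in turn, with edgeR adjusted p from 0.0661 to 0.139. ATG2B, the less abundant paralogue, had 2.85, 3.39 and 3.74 FPKM in the control libraries against 3.08, 2.94 and 3.05 in the hyperoside libraries, which overlapped (log2 fold change -0.18, edgeR adjusted p = 0.121). Without control replicate 1 ATG2B was called lower (-0.26, edgeR adjusted p = 0.00936).

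Among the conjugation enzymes and ATG4 proteases, 8 of 10 genes were not called, and the median log2 fold change was -0.08. ATG7 (chr3:11272397-11576353), the activating enzyme that serves both the ATG12 and the ATG8 conjugation, was the exception that rose. Its FPKM was 2.55, 2.53 and 2.69 in the control libraries against 4.04, 3.79 and 3.74 in the hyperoside libraries, a log2 fold change of 0.53 (SE 0.09, edgeR adjusted p = 0.000128). The control values were tightly grouped and lay below all hyperoside values. VGLL4 exons overlap ATG7 on the opposite strand. ATG4C (chr1:62784132-62865516), 1 of 4 proteases that process ATG8 proteins, was the exception that fell. It had 7.11, 8.46 and 8.77 FPKM in the control libraries against 5.87, 5.84 and 5.43 in the hyperoside libraries, a log2 fold change of -0.55 (SE 0.11, edgeR adjusted p = 0.000335).

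The other 3 proteases had log2 fold changes close to 0, at -0.09 for ATG4A, 0.07 for ATG4B and -0.12 for ATG4D. ATG5, the acceptor of ATG12 and the most abundant gene of the group, had 16.0, 17.8 and 18.9 FPKM in the control libraries against 18, 17.5 and 19.2 in the hyperoside libraries. Its groups overlapped (log2 fold change 0.01, edgeR adjusted p = 0.946). ATG10, the conjugating enzyme for ATG12 and the least abundant gene of the group, had 1.91, 2.26 and 2.13 FPKM in the control libraries against 2.60, 2.87 and 2.33 in the hyperoside libraries. The groups did not overlap, but the log2 fold change of 0.26 (SE 0.11) had an edgeR adjusted p of 0.0668. ATG12 itself (-0.21, edgeR adjusted p = 0.0627, and 0.00558 without control replicate 1), ATG16L1 (-0.06) and ATG3, the conjugating enzyme for ATG8 proteins (-0.12), were not called.

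Of the 5 ATG8 genes, 3 fell, 1 was not called and 1 had no count in any library. MAP1LC3B (chr16:87392336-87404774), which encodes the LC3 protein used as an autophagosome marker, had 117.9, 119.4 and 129.7 FPKM in the control libraries against 86.6, 82.1 and 87.8 in the hyperoside libraries. It fell without overlap, with a log2 fold change of -0.57 (SE 0.07, edgeR adjusted p = 3.24e-06). The near-identical copy MAP1LC3B2, with which it can share reads, was listed at 7.24 to 8.51 FPKM in the control group and 4.91 to 5.45 in the hyperoside group, and exons of FBXO31 overlap MAP1LC3B on the opposite strand. MAP1LC3A, a paralogue of MAP1LC3B, had 0 counts in all 6 libraries, which allows up to 3 counts or 0.0816 to 0.0842 CPM.

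GABARAPL1 (chr12:10212877-10223128) had the largest decrease of the family, with 33.9, 34.0 and 35.1 FPKM in the control libraries against 20.2, 18.6 and 22.3 in the hyperoside libraries. The 3 control values were almost equal, and the log2 fold change was -0.80 (SE 0.09, edgeR adjusted p = 7.35e-07). An antisense gene overlaps its exons, and its near-identical copy GABARAPL3 was not analysed here. GABARAPL2 (chr16:75566379-75577881), also called GATE-16, had 79.5, 83.1 and 87.1 FPKM in the control libraries against 60.1, 53.2 and 61.6 in the hyperoside libraries, a log2 fold change of -0.56 (SE 0.08, edgeR adjusted p = 2.36e-05). No exon of another gene overlaps GABARAPL2. GABARAP, the founding member of its subfamily, had 109.3, 107.2 and 100.9 FPKM in the control libraries against 105.9, 97.4 and 111.5 in the hyperoside libraries. These values were interleaved, with a log2 fold change of -0.06 (SE 0.08, edgeR adjusted p = 0.543).

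The summed FPKM of the ATG8 genes was 340.6 to 352.8 in the control libraries and 251.4 to 283.1 in the hyperoside libraries. MAP1LC3B led the family in the control libraries with 34.6% to 36.8% of that sum and GABARAP followed with 28.6% to 32.1%. In the hyperoside libraries GABARAP led per length with 38.8% to 39.4% and MAP1LC3B followed with 31.0% to 32.7%. GABARAPL1 held 9.89% to 9.96% and then 7.40% to 7.88%. The shares were computed after the levels had been seen, and a rise in a share here does not mean a rise in the level.

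**Figure D3:**
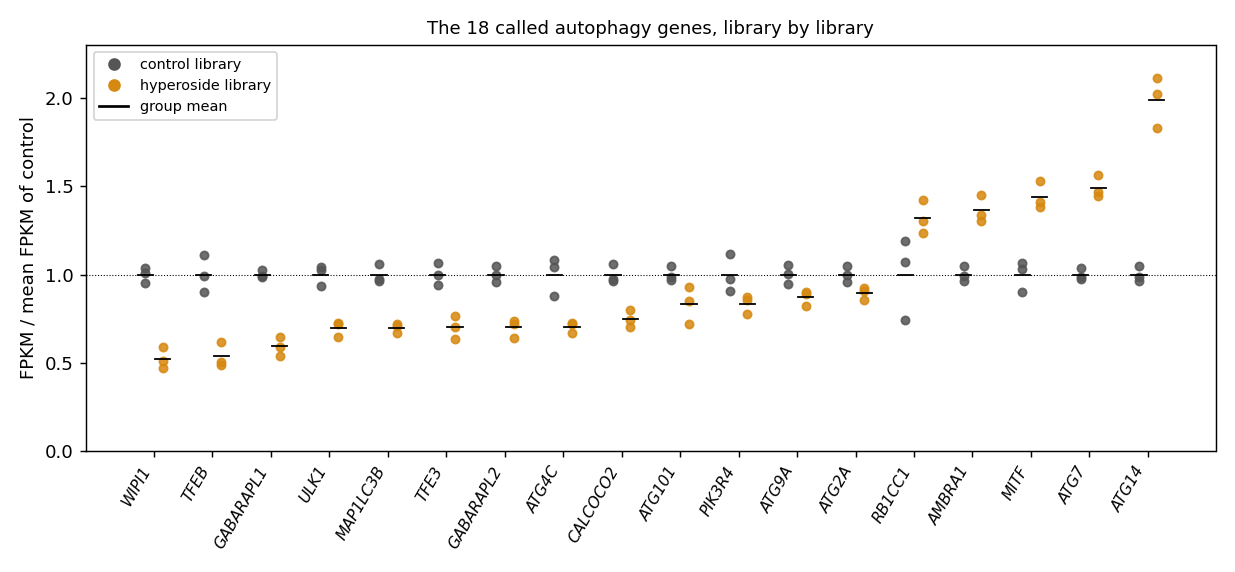
FPKM of the 18 called autophagy genes in each library divided by the gene's control mean (vertical axis), ordered by log2 fold change, with control libraries in grey, hyperoside libraries in orange and group means as bars. ATG14 is highest and WIPI1 lowest relative to control, and RB1CC1 has the widest control spread, with control replicate 1 at the bottom.

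Among the 6 cargo receptors and mitophagy genes, 1 fell and 5 were not called. CALCOCO2 (chr17:48831035-48865245), which encodes NDP52, a receptor for bacteria and damaged mitochondria, had 36.7, 36.4 and 40.1 FPKM in the control libraries against 30.1, 26.6 and 28.1 in the hyperoside libraries. The decrease was larger than the spread within either group, with a log2 fold change of -0.47 (SE 0.07, edgeR adjusted p = 5.66e-05). TAX1BP1, a related ubiquitin-binding receptor and the most abundant of the group, had 53.4, 63.5 and 60.9 FPKM in the control libraries against 58.9, 56.2 and 61.7 in the hyperoside libraries. TBC1D15, a GTPase-activating protein for RAB7 that acts in mitophagy, had 17.1, 20.3 and 20.4 FPKM in the control libraries against 21.3, 18.4 and 19.1 in the hyperoside libraries. Both overlapped between groups, at log2 fold changes of -0.06 and -0.02. The receptors OPTN (0.14, edgeR adjusted p = 0.198) and NBR1 (-0.03) and the mitochondrial outer membrane receptor FUNDC1 (0.09) were not called either.

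SQSTM1, which encodes the receptor p62 and is not among the 40 genes, showed the largest increase of the listed receptors that were called. It had 80.7, 89.4 and 100.3 FPKM in the control libraries against 193.9, 169.9 and 204.3 in the hyperoside libraries, a log2 fold change of 1.02 (SE 0.08, edgeR adjusted p = 2.69e-08). Set beside MAP1LC3B, whose product binds p62, the FPKM ratio of SQSTM1 to MAP1LC3B was 0.684, 0.749 and 0.774 in the control libraries against 2.24, 2.07 and 2.33 in the hyperoside libraries. This ratio was chosen after the values were seen. Per length, SQSTM1 was the less abundant of the pair in every control library and the more abundant in every hyperoside library. In counts SQSTM1 was the higher in the control libraries too, with 9677, 10397 and 11658 against 9307, 9131 and 9914 for MAP1LC3B. Of the 15 other cargo receptors tested, SQSTM1 included, 6 rose and 4 fell, with a median log2 fold change of 0.08. WDFY3 (0.78, edgeR adjusted p = 1.96e-05), which helps clear protein aggregates, rose. The receptors for the endoplasmic reticulum did not move together. CCPG1 (-1.17, edgeR adjusted p = 7.44e-06) and RTN3 (-0.49, edgeR adjusted p = 1.96e-05) fell, and TEX264 (0.52, edgeR adjusted p = 0.00128) rose. SEC62 and CALCOCO1 were not called. RETREG1 (log2 fold change 1.13, SE 0.71) was not called either, at 3 to 21 counts per library, too few to settle a change of this size.

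The further genes of the pathway were described from lists by step, chosen with earlier results of these data known. Across 113 tested genes of 6 lists, 51 (45.1%) were called higher and 24 (21.2%) lower, beside 22.1% and 23.2% of all tested genes. Of 18 other core genes and paralogues, 8 fell and 3 rose, with a median log2 fold change of -0.11. TMEM41B, a scramblase of the endoplasmic reticulum that acts with VMP1, had 17.3, 22.0 and 21.9 FPKM in the control libraries against 9.66, 8.53 and 9.17 in the hyperoside libraries, a log2 fold change of -1.21 (SE 0.09, edgeR adjusted p = 1.83e-08). RUBCNL had the most negative value of the list (-2.45, edgeR adjusted p = 0.0034) at no more than 0.115 FPKM in any library. EPG5 (0.35) and TECPR1 (0.33), which act in autophagosome maturation, rose.

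Of 17 genes for fusion of autophagosomes with lysosomes, 9 rose and 0 fell by edgeR at an adjusted p under 0.05, with a median log2 fold change of 0.20. The shares were 52.9% higher and 0% lower, beside 22.1% and 23.2% of all tested genes. VPS18, a core subunit of the HOPS tethering complex, had 7.37, 5.94 and 6.08 FPKM in the control libraries against 11.2, 11.7 and 11.6 in the hyperoside libraries (log2 fold change 0.78, edgeR adjusted p = 8.27e-06). RILP, a RAB7 effector, rose by 0.74 on the log2 scale (edgeR adjusted p = 4.83e-06). Of 26 tested TFEB target genes outside the 40 genes, mostly lysosomal, 19 rose and 3 fell, with a median log2 fold change of 0.47. Their shares were 73.1% higher and 11.5% lower, beside the same 22.1% and 23.2%. As both lists were chosen with earlier results known, these shares are a description and not independent evidence. GPNMB (1.26, edgeR adjusted p = 0.0141) had the largest increase, and SGSH (-0.94, edgeR adjusted p = 1.78e-06) and CTSF (-0.52, edgeR adjusted p = 0.00268) the largest decreases. The TFEB and TFE3 transcripts fell in the same libraries, whereas MITF rose.

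**Figure D4:**
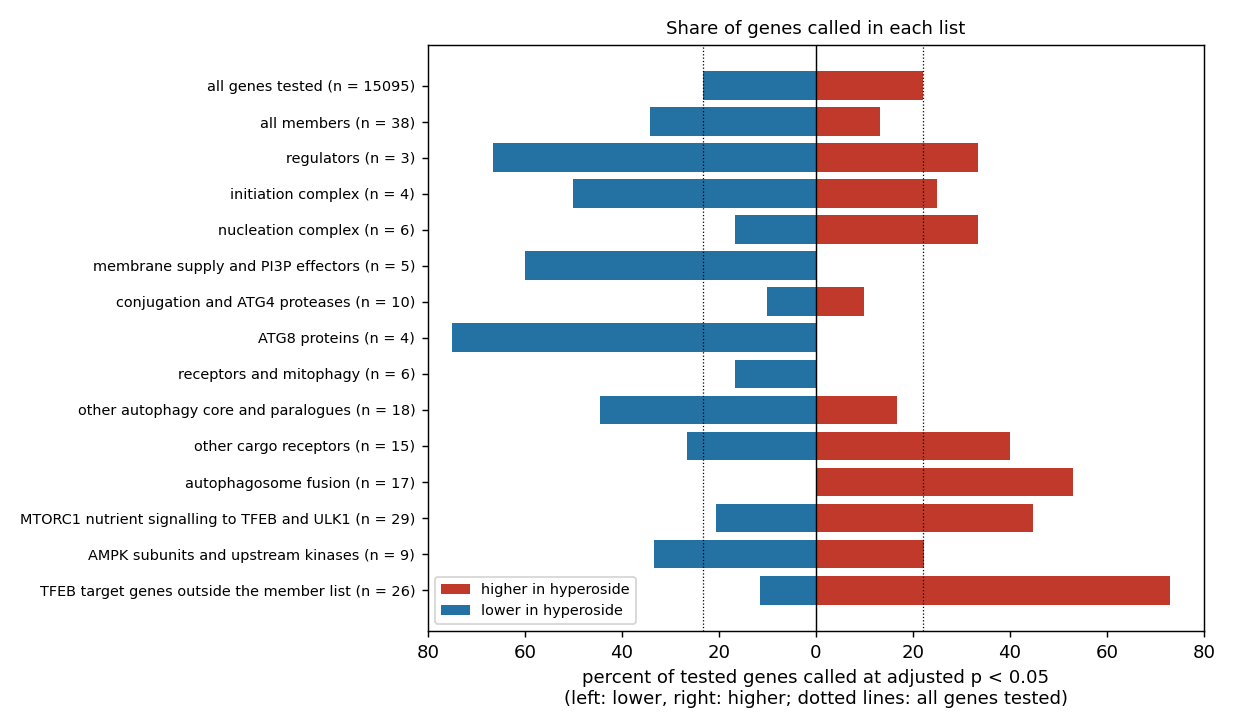
The percentage of tested genes called lower (left, blue) and higher (right, red) in the hyperoside group for all tested genes, the 38 autophagy genes, their role groups and the further lists, with dotted lines at the shares of all tested genes. The ATG8, membrane supply, and receptor and mitophagy groups hold called genes on the left alone, and the autophagosome fusion list on the right alone.

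Genes that signal to ULK1 and TFEB were also mixed. Of 29 tested genes of MTORC1 nutrient signalling 13 rose and 6 fell, with a median log2 fold change of 0.26. RRAGD, a Rag GTPase through which MTORC1 reaches TFEB, had 0.254, 0.319 and 0.160 FPKM in the control libraries against 1.47, 1.02 and 1.49 in the hyperoside libraries, a log2 fold change of 2.38 (SE 0.26, edgeR adjusted p = 1.19e-06). FNIP2, a partner of folliculin upstream of the Rag GTPases, rose by 1.17 on the log2 scale (edgeR adjusted p = 1.8e-07). The stress-induced MTORC1 inhibitors DDIT4 (-1.48, edgeR adjusted p = 9.83e-09) and SESN2 (-1.44, edgeR adjusted p = 3.54e-10) fell. Of 9 tested AMPK subunits and upstream kinases, 2 rose and 3 fell. PRKAB1 (0.33) and PRKAG1 (0.23) rose, and CAMKK2 (-0.44) and PRKAB2 (-0.37) fell.

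Autophagy genes known as targets of other stress factors were also counted. Of 12 genes known to be induced by ATF4 or DDIT3, SQSTM1 included, 2 rose (SQSTM1 and ATG7), 2 fell (MAP1LC3B and GABARAPL2) and 8 were not called, with a median log2 fold change of -0.04. Of 7 tested genes known to be induced by FOXO factors, ATG14 rose, ULK1, MAP1LC3B and GABARAPL1 fell, and 3 were not called, with a median of -0.21. The called shares were 33.3% and 57.1%, beside 45.3% of all tested genes.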

How the data were processed

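Illumina HiSeq sequencing was applied to RNA of K562 cells, and OE Biotech carried out the data analysis for the authors. The submitters' processing notes name fastp, HISAT2, HTSeq and hg38, with no versions or order, and neither the annotation nor the use of strand is given in the sources used here. The authors deposited raw counts per gene, and FPKM values made by dividing these counts by gene length and library total. A single length per gene accounted for the FPKM values within 0.1% in 100% of 12742 genes with enough counts. The deposited annotation columns were not used. Groups came from the sample labels and the dose (2 mM) from the paper.

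Genes were kept by filterByExpr (minimum count 10, minimum total 15), which left 15095 genes with 99.9% of counts, scaled by TMM and compared in R 4.3.3 with edgeR 4.0.16 (quasi-likelihood test, condition as the only term, Benjamini-Hochberg adjustment). FPKM values are not TMM-scaled, so their ratios differ slightly from the fold changes. A gene was called at an adjusted p under 0.05, and groups did not overlap where all normalized counts of one lay above those of the other. A standard error is the absolute log2 fold change divided by the square root of F. The counts on genes gave 35613283 to 36754725 per library, and the common coefficient of variation was 0.105. Limits from counts cover counting error only. The steps were tested on simulated data. Alternatives used DESeq2 1.42.0, limma 3.58.1, other scalings, no filter, FPKM with 1 or 0.1 added, a block for the replicate number, and analyses without each library.

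The 40 genes and all lists were chosen with earlier results of these data known, so no list is independent evidence. Named in full are, in each of 7 roles, the called gene with the largest change in each direction, those with the highest and lowest mean FPKM and those that failed the filter, and up to 2 called genes per direction of each further list and SQSTM1. The other called genes of the 40 and further receptors for the endoplasmic reticulum are given too. A gene that this rule takes and a listed marker are not reported here. Positions and promoters are from RefSeq on GRCh38.p14 and exon overlaps from GENCODE 29. Plots were drawn with matplotlib 3.10.9.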

Additional observations from a re-analysis of the deposited data

How the results depend on the processing

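Over 13 alternatives the number of autophagy genes called higher was 4 to 6 and the number called lower 10 to 15, and those of the further lists were 43 to 53 and 20 to 28. The number past a fold change of 2 was 0 in all alternatives except the analyses that left out 1 library, where it was 0 to 2. Of the calls, 4 of 5 higher and 9 of 13 lower were kept in all 13, the others being RB1CC1, ATG101, PIK3R4, ATG2A and ATG9A. Calls were gained by ATG2B (adjusted p = 0.00936) and ATG12 (0.00558) without control replicate 1, UVRAG (0.0489) and WIPI2 (0.0444) without control replicate 3, OPTN (0.0386) without hyperoside replicate 2, and ATG10 without hyperoside replicate 3 (0.0442) and with upper-quartile scaling (0.0353). No source says that the replicate numbers pair the libraries. Correlations of same-numbered libraries were -0.081, -0.033 and -0.034, beside -0.027 to 0.064 for the other pairs. With so few libraries these values cannot settle whether cultures or batches were shared. The replicate block gave 5 higher and 11 lower genes, without ATG2A and ATG9A. Genes near 0 that were not called changed sign. PIK3C3 was at 0.0195, 0.0249 and 0.0291 with upper-quartile scaling, log2(FPKM + 1) and log2(FPKM + 0.1), NBR1 at 0.0146, 0.0231 and 0.0240, and TBC1D15 at 0.0184, 0.0262 and 0.0276. With libraries left out in turn, PIK3C3 ranged from -0.0655 to 0.0221, ATG5 ranged from -0.0342 to 0.0453, ATG16L1 ranged from -0.102 to 0.0189, NBR1 ranged from -0.0767 to 0.0172 and TBC1D15 ranged from -0.0823 to 0.0209. The cause of these shifts was not tested. Levels near 1 FPKM, as for TFEB, limit precision through their low counts.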
